A study of Rattus norvegicus with 6 samples.

Results

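The 200 lncRNA probes with the brightest signal in the aorta of control rats were examined. They were chosen from 3855 probes whose identifier starts with ASRN6LNC, among 38804 different probes on the array that were not control spots. The choice used the mean over the 3 control arrays of the log2 processed signal, after each array's 75th percentile had been subtracted, so a level of 0 is that percentile and 1 unit is a doubling. A spot's brightness depends on the sequence of the probe as well as on the amount of RNA, so the order of the 200 is an order of signals and not a measured order of transcript abundance.

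All 6 samples were thoracic aortas of spontaneously hypertensive rats (SHR), an inbred strain that becomes hypertensive without treatment. Treatment began at 12 weeks of age and the tissue was taken at 16 weeks. In the peptide group, 3 rats received SYP, a peptide of the mushroom G. lingzhi, by daily intravenous injection of 5.0 mg/kg for 28 days. The 3 control rats received saline, and the labels also call them untreated. Both groups carry the same strain background, and no normotensive rats were analysed here. The labels disagree on sex, with female in the growth protocol and male in the sample characteristics. The tissue was whole vessel wall, so fewer cells of a type and less RNA per cell cannot be told apart. Of 22 marker genes of smooth muscle, endothelium and other aortic cells, 0 had a probe with a gene name here, so the tissue label was not checked against markers.

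Long noncoding RNAs are transcripts that are processed much like messenger RNAs but are not known to be translated. Many stay in the nucleus, where some take part in chromatin regulation or splicing, while others act in the cytoplasm on the stability or translation of messenger RNAs. Most lncRNAs are scarce and restricted to some cell types, and a small number are made at high levels in nearly every cell. In the vessel wall, lncRNAs have been studied in the switching of smooth muscle cells between contractile and proliferating states. None of the 3855 probes could be paired with a gene name, an accession or a sequence here, so members are given by identifier and no role is stated for any of them.

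The arrays differed in 2 ways that touch every result. Slides were inferred from the scan entry in the scanner headers, and arrays with the same entry were taken to lie on 1 slide. By this reading slide 1 held the 3 controls and peptide 1, while slide 2 held peptide 2 and peptide 3. Control 1 also stood apart from the other controls among the 200 probes, with a root mean square log2 difference of 1.19 from control 2 and 1.13 from control 3, against 0.39 between control 2 and control 3. Values are therefore given with and without control 1, and with the slide as a block, which compares peptide 1 alone with the controls of its slide. The 75th percentile of the log2 signal itself lay between 7.81 and 7.97 on slide 1 and at 8.39 and 8.36 on slide 2.

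All 200 probes were well above background on each of the 6 arrays, and 0 were saturated. The median processed signal of the 200 ranged from 1597 to 3528 over the arrays. Being chosen for brightness, these probes carried most of the signal of their class. They gave 86.4%, 84.4% and 83.2% of the summed signal of all ASRN6LNC probes on control 1, 2 and 3, and 83.1%, 85.4% and 84.7% on peptide 1, 2 and 3. The 10 brightest gave 40.0%, 40.5% and 39.4% on the controls. On peptide 1 their share was 41.9%, and on peptide 2 and 3 it was 35.3% and 34.7%, below all 4 arrays of slide 1. These shares, summed with outlier spots kept, do not change when an array is scaled by a single factor. Quantile normalization or another background correction could change them. The dimmest of the 200 still lay at or above percentile 75.3 of all probes of its array.

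The threshold fell in a dense part of the distribution. Just inside it, ASRN6LNC1A100001957V3, ASRN6LNC1A100000983V3 and ASRN6LNC1A100001721V3 had control means of 1.57, 1.56 and 1.55. Just outside, ASRN6LNC1A100005707V3, ASRN6LNC1A100001342V3 and ASRN6LNC1A100004152V3 had 1.54, 1.54 and 1.53. The SD of these 6 probes over the 3 controls was 0.38 to 1.06, so which of them fell inside was not resolved by the replicates. Of the 200, 165 had a control mean above 2, 64 above 4 and 13 above 7.

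**Figure D1:**
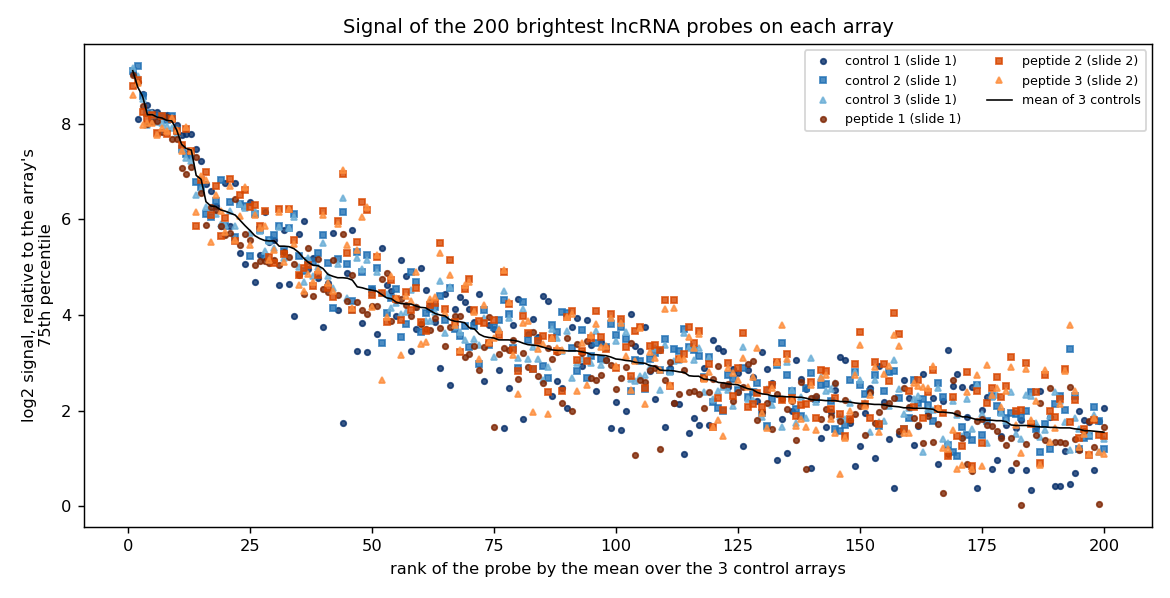
Log2 signal relative to the array's 75th percentile (vertical axis) of each of the 200 probes on each of the 6 arrays (points), against the rank by the mean of the 3 controls (line). The 10 brightest lie together near 8 to 9 on all arrays, and the spread between arrays widens below them, with control 1 at both edges.

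The brightest member was ASRN6LNC1A100003050V3. Its log2 signal was 9.06, 9.10 and 9.17 on control 1, 2 and 3 and 9.03, 8.78 and 8.61 on peptide 1, 2 and 3. The 3 controls and peptide 1 lay together, and the arrays of slide 2 were the lowest. The mean of the control rats was 9.11 ± 0.06 (SD, n = 3) and that of the peptide rats 8.81 ± 0.21 (SD, n = 3). The difference was -0.30 (SE 0.27, limma adjusted p = 0.759). Blocked by slide, the difference was -0.08 (SE 0.29).

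The second member, ASRN6LNC1A100003394V3, was at 8.09, 9.21 and 9.0 on the controls and at 8.88, 8.91 and 8.85 on the peptide arrays. Control 1 was low, and the 3 peptide arrays lay between it and the other controls. The processed signal was 68359 on control 1 against 132672 and 119391 on control 2 and 3. Its difference between groups was 0.11 (SE 0.34, limma adjusted p = 0.913), and -0.23 without control 1.

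The other 8 of the 10 brightest had control SDs of 0.06 to 0.21. The third, ASRN6LNC1A100004057V3, was at 8.63, 8.59 and 8.51 on the controls and 8.38, 8.24 and 7.97 on the peptide arrays. Every peptide array was below every control array, and the difference was -0.38 (SE 0.27, limma adjusted p = 0.757), though with normexp background correction it was 0.11. ASRN6LNC1A100004221V3 (control mean 8.19), ASRN6LNC1A100004821V3 (8.19), ASRN6LNC1A100004904V3 (8.14), ASRN6LNC1A100006765V3 (8.12), ASRN6LNC1A100299494V3 (8.07), ASRN6LNC1A100608220V3 (8.06) and ASRN6LNC1A100002280V3 (7.87) followed, with differences between groups of -0.07 to -0.26. For 6 of these 7 probes the sign turned after median scaling, and for ASRN6LNC1A100004904V3 it turned with normexp background correction, so no direction holds for them. The same 10 probes were the 10 brightest by the mean of the peptide arrays.

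The spread between control rats was larger below that top group. The median SD over the 3 controls was 0.10 for the 10 brightest, 0.50 for ranks 11 to 50, 0.55 for ranks 51 to 100 and 0.59 for the 100 ranks after those. Over all 200 it was 0.526, against 0.343 for the 3673 tested lncRNA probes and 0.363 for all 37723 tested probes. That spread rested on control 1. Between control 2 and control 3 alone the median SD was 0.140 for the 200, 0.131 for the lncRNA probes and 0.138 for all probes. Among the peptide rats the median SD of the 200 was 0.445, and 0.118 between peptide 2 and peptide 3, which share a slide.

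Each member had 1 spot per array. The repeat error of a spot can be set beside these spreads through 17 other probes at least as bright as the dimmest member, each printed 10 times on an array. Their median SD over repeat spots was 0.072 to 0.122, depending on the array. The median spread of the 200 between control 2 and control 3 (0.140) was above each of these values, and so was that over all 3 controls (0.526). An SD from 2 arrays and one from 10 spots are not directly comparable.

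The steadiest member over all 6 arrays outside the top group was ASRN6LNC1A100000508V3, at 1.80, 1.43 and 1.53 on the controls and 1.58, 1.61 and 1.52 on the peptide arrays. The groups overlapped fully, and the SD over the 6 arrays was 0.12. ASRN6LNC1A100002280V3 and ASRN6LNC1A100004821V3 each had an SD of 0.10 over the 6 arrays. In all, 33 members had a control SD under 0.2 and 26 a control SD above 1. The lowest was 0.02 and the highest 2.64.

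ASRN6LNC1A100026743V3 had the highest SD. Its log2 signal was 1.74 on control 1 against 6.16 and 6.45 on control 2 and 3, and 5.70, 6.94 and 7.04 on the peptide arrays. In processed signal this was 837 on control 1 against 15954 and 20338 on the other controls, and 12481, 41265 and 43248 on the peptide arrays. Control 1 alone was far below the rest, and the peptide arrays of slide 2 were the highest. ASRN6LNC1A100000250V3 showed the same order, at 0.39, 2.83 and 3.06 on the controls and 2.26, 4.04 and 3.59 on the peptide arrays. ASRN6LNC1A100517861V3 was at 0.47, 3.29 and 1.17 on the controls and 2.50, 1.77 and 3.79 on the peptide arrays, with no order by group or slide.

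Control 1 departed from the other controls in many members at once. It lay more than 1 log2 unit below both control 2 and control 3 in 51 members (25.5%) and more than 1 unit above both in 18 (9.0%). Over all tested probes these shares were 5.24% and 6.69%, and over the tested lncRNA probes 6.53% and 1.5%. Control 2 was that far below both others in 2 members and above both in 2, where 0.167% and 1.11% of all tested probes were. Control 3 was so below in 1 member and above in 0, where 0.361% and 0.0583% of all tested probes were. The split of the control 1 counts depended on the scaling, with 34 below and 36 above after median scaling, where 2.32% and 13.1% of all tested probes were, and 67 below and 1 above after quantile normalization, where 4.01% and 3.5% were. Along the axis that held 70.9% of the variance of the members around their own means, control 1 had a weight of -0.82 and the other arrays had weights from -0.18 (peptide 1) to 0.39 (peptide 3).

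The brightest of the 51 members with a low control 1, chosen after their values were seen, showed one pattern. ASRN6LNC1A100004089V3 was at 5.29, 6.33 and 6.33 on the controls and 5.46, 6.51 and 6.08 on the peptide arrays. ASRN6LNC1A100005894V3 was at 5.07, 6.29 and 6.24 on the controls and 5.70, 6.62 and 6.67 on the peptide arrays. ASRN6LNC1A100008042V3 was at 4.70, 6.11 and 6.18, then 5.04, 6.31 and 6.09. In each of these 3 probes control 1 was lowest, peptide 1 was next, and control 2, control 3, peptide 2 and peptide 3 lay together above them. ASRN6LNC1A100003709V3 (4.62 on control 1, 5.05 on peptide 1 and 5.85 to 6.22 on the other arrays) and ASRN6LNC1A100002567V3 (4.64, 5.21 and 5.81 to 6.22) had the same order.

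Peptide 1 was also lower than the other controls in these members, by less than control 1 in the median. It was below both control 2 and control 3 in 51 of 51, and below both peptide 2 and peptide 3 in 50 of 51. Relative to the mean of control 2 and 3, the median of the 51 was -1.68 on control 1, -0.79 on peptide 1, 0.22 on peptide 2 and 0.15 on peptide 3. In all 200 members peptide 1 was below both of those controls in 136 (68.0%), and below all 3 controls in 68 (34.0%, where 14.0% of all tested probes were). Part of this order was also seen beyond the brightest probes. Of 1976 tested probes in which control 1 was low by this measure, peptide 1 was below both other controls in 1739 (88.0%). It was so in 46.6% of all tested probes. After quantile normalization the members gave 65 of 67, and after median scaling 34 of 34. Against peptide 2 and 3 the order was weaker in the 1976 probes, with peptide 1 below both in 1294 and above both in 495. Among the tested probes with a low control 1, it was below both in 1282 of 1511 after quantile normalization and in 814 of 876 after median scaling. The peptide arrays played no part in choosing these members, but control 2 and control 3 did. They had to lie well above control 1, which by itself favours finding peptide 1 below them. The 51 were picked after values were seen and no test is given. Control 1 is a saline rat and peptide 1 a treated rat, so this order runs across the groups, and its cause was not tested.

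**Figure D2:**
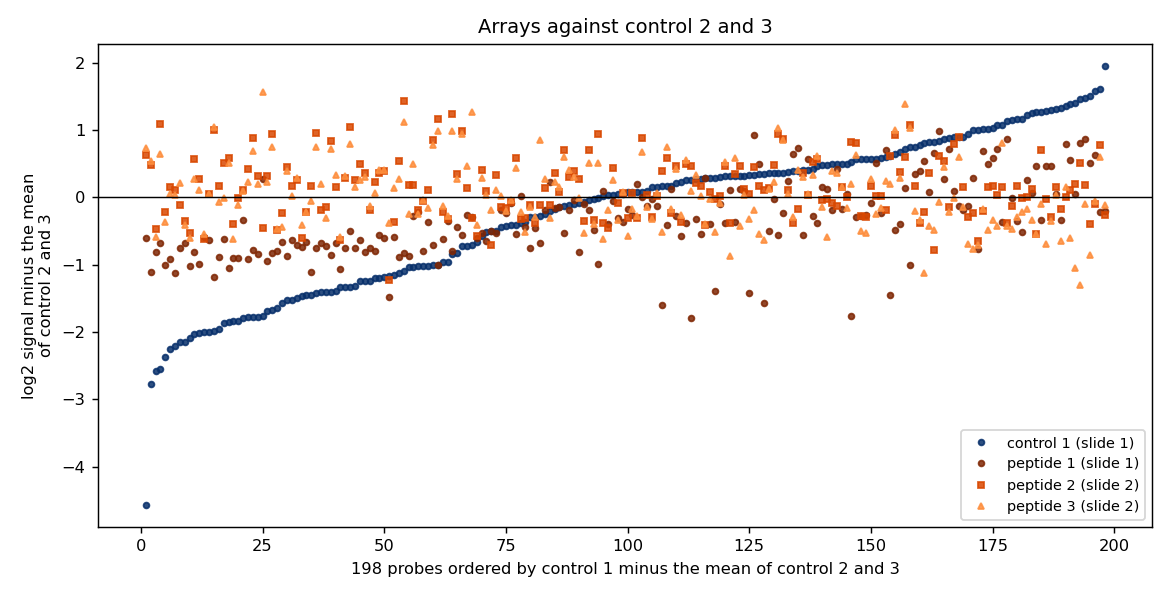
Log2 signal of control 1 and the 3 peptide arrays minus the mean of control 2 and 3 (vertical axis) for the probes with all 3 control spots, ordered by control 1 (horizontal axis). At the left, where control 1 is lowest, peptide 1 lies below 0 while peptide 2 and 3 scatter around it. At the right, where control 1 is highest, peptide 1 lies on both sides of 0.

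In the 18 members with a high control 1, peptide 1 lay higher than in the rest of the set. There the median was 1.33 on control 1, 0.06 on peptide 1, 0.01 on peptide 2 and -0.27 on peptide 3, again relative to the mean of control 2 and 3. The median of peptide 1 was -0.23 over the 131 members with control 1 neither low nor high, and -0.36 over all 200. Peptide 1 was above both control 2 and 3 in 9 of the 18, against 32 of the 131. It was above both peptide 2 and 3 in 9 of the 18, against 38 of the 131. Control 2 and 3 had to lie well below control 1 here, which by itself raises peptide 1 relative to them. No test is given for these counts. ASRN6LNC1A100004944V3, the brightest of them, was at 5.96, 4.92 and 4.69 on the controls and 4.45, 4.98 and 4.51 on the peptide arrays. Control 1 stood out there. In ASRN6LNC1A100003342V3 (5.71, 4.15 and 4.57 on the controls, then 5.15, 4.37 and 4.51) and ASRN6LNC1A100149234V3 (5.78, 4.30 and 4.11, then 4.83, 4.10 and 4.15) peptide 1 was the next highest array.

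The brightest set was largely retained in the treated rats. Of the 200 members, 180 were also among the 200 brightest lncRNA probes by the mean over the peptide arrays, which the choice had not used. By single array, 180, 174 and 168 were in the top 200 of peptide 1, 2 and 3, and 132 were in the top 200 of every one of the 6 arrays. To see how a control left out of the choice compares, the 200 were also chosen from each pair of controls. The left-out array then held 160, 174 and 173 of them in its own top 200 when it was control 1, 2 and 3. Peptide arrays held 162 to 181 in the same comparisons, so control 1 held fewer than any treated rat.

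The 20 members outside the peptide top 200 had control ranks of 137 to 200. The lowest rank by the peptide mean, 314, was that of ASRN6LNC1A100004155V3. It was at 2.50, 1.39 and 1.62 on the controls and 0.74, 0.85 and 0.79 on the peptide arrays. All 3 peptide arrays were below all 3 controls, and they lay close to each other. The next lowest were ASRN6LNC1A100000983V3 (rank 296), at 1.78, 1.78 and 1.13 on the controls and 0.04, 1.5 and 1.14 on the peptide arrays, and ASRN6LNC1A100003324V3 (rank 275), at 1.80, 1.86 and 1.41 and then 0.03, 2.02 and 1.12. In both, peptide 1 was the lowest array. In the first, peptide 2 and 3 lay within the control range, and in the second peptide 2 lay above all controls and peptide 3 below them.

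The design asks which RNAs differ between peptide and control aortas, and no member passed that test. With limma over all 37723 tested probes and Benjamini-Hochberg adjustment, 0 of the 200 members had an adjusted p under 0.05, where 0.0% of all tested probes did. The smallest adjusted p among the members was 0.757. At an unadjusted limma p under 0.05 there were 0 members higher and 1 lower in the peptide group, where 0.535% of all tested probes were higher and 2.3% lower. Because the control arrays chose the members, chance highs of the controls were chosen with them, which by itself lowers the difference, so nothing is read from the members' direction. With the 200 chosen by all 6 arrays there were 3 higher and 0 lower. None of these 3 was among the 200 chosen by the controls. ASRN6LNC1A100209488V3 and ASRN6LNC1A100397659V3 had outlier spots on control 2, control 3 and peptide 1, so their fit sets control 1 alone against slide 2 and gives no value for the groups. ASRN6LNC1A100005143V3 was at 0.38, 1.80 and 1.17 on the controls and 1.57, 2.75 and 2.68 on the peptide arrays, with the highest control above peptide 1. Its difference was 1.22 (SE 0.43, limma adjusted p = 0.757).

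The single member under that unadjusted threshold was ASRN6LNC1A100004155V3, given above. The control mean was 1.84 ± 0.58 (SD, n = 3) and the peptide mean 0.79 ± 0.06 (SD, n = 3), which is 2.06-fold lower. The difference was -1.04 (SE 0.33), with a limma p of 0.00997 and an adjusted p of 0.757. On the slide of the controls the difference was -1.10 (SE 0.46), and without control 1, the highest control, it was -0.71. It kept its sign under each alternative tried, from -1.27 to -0.71. The processed signal was 1418, 586 and 717 on the controls and 400, 608 and 565 on the peptide arrays, so before scaling control 2 lay between the peptide arrays.

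Groups that did not overlap were found for 13 members, all lower in the peptide group (6.5%), where 4.23% of all tested probes lay wholly below the controls and 1.29% wholly above. Median scaling left 1 lower and 0 higher, where 5.11% and 3.64% of all tested probes were, and quantile normalization gave 9 lower and 2 higher, where 5.59% and 3.7% were. Without control 1 there were 33 lower (16.5%) and 3 higher (1.5%), where 29.4% of all tested probes were lower and 3.72% higher. Among the named members of this kind, ASRN6LNC1A100003050V3 and ASRN6LNC1A100004057V3 kept differences of -0.33 and -0.35 without control 1. In others control 1 was well above the other controls. ASRN6LNC1A100001296V3 was at 4.33, 2.90 and 3.10 on the controls and 2.67, 2.82 and 2.35 on the peptide arrays, a difference of -0.84 (SE 0.39) that was -0.39 without control 1. ASRN6LNC1A100005324V3 was at 2.50, 1.65 and 1.46 and then 1.43, 1.27 and 0.86, and its difference of -0.68 (SE 0.34) was -0.37 when control 1 was left out.

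ASRN6LNC1A100002011V3 and ASRN6LNC1A100003153V3 were the brightest named members with separate groups after the top 10. The first was at 4.53, 4.04 and 3.88 on the controls and 3.70, 3.67 and 3.43 on the peptide arrays, and the second at 5.69, 5.23 and 5.01 and then 4.84, 4.84 and 4.62. In both, control 1 was highest and peptide 3 lowest, and the gap between the groups was smaller than the spread within the controls. The differences were -0.55 (SE 0.29) and -0.54 (SE 0.29), and the limma adjusted p was 0.757 for both. These 2 differences, and those of ASRN6LNC1A100001296V3 and ASRN6LNC1A100005324V3, kept their sign under the alternatives tried.

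Differences of 2-fold or more between group means were found for 3 members higher (1.5%) and 1 lower (0.5%), where 0.716% and 0.782% of all tested probes were so. None of these 4 passed the test. ASRN6LNC1A100004155V3 was the lower one. The higher ones were the 3 most variable members, ASRN6LNC1A100026743V3 (1.78, SE 1.01), ASRN6LNC1A100000250V3 (1.20, SE 0.67) and ASRN6LNC1A100517861V3 (1.04, SE 0.69). The limma adjusted p was 0.757 in each. Without control 1 the differences were 0.26, 0.35 and 0.45. For ASRN6LNC1A100517861V3 other arrays moved it as well, to 0.49 without peptide 3 and 1.87 without control 2. Blocked by slide they were 0.92 (SE 1.64), 0.17 (SE 0.96) and 0.86 (SE 1.13).

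Over the 200, differences ran from -1.04 to 1.78, with 104 above 0 (52.0%) and 96 below, where 27.8% of all tested probes were above 0. The median was 0.022, against -0.276 for the tested lncRNA probes and -0.214 for all tested probes. The medians moved with the scaling, to 0.105, -0.032 and -0.029 after quantile normalization and to 0.225, -0.072 and -0.011 after median scaling. The lncRNA class was also divided by control level, which itself enters the difference, so the order over levels is a description only. In 10 equal groups by control level it was between -0.41 and -0.29 in the 7 dimmest, then -0.17, -0.02 and 0.07 in the brightest, which holds all 200 members. After quantile normalization the brightest group was at 0.10 and the others between -0.08 and 0.01.

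**Figure D3:**
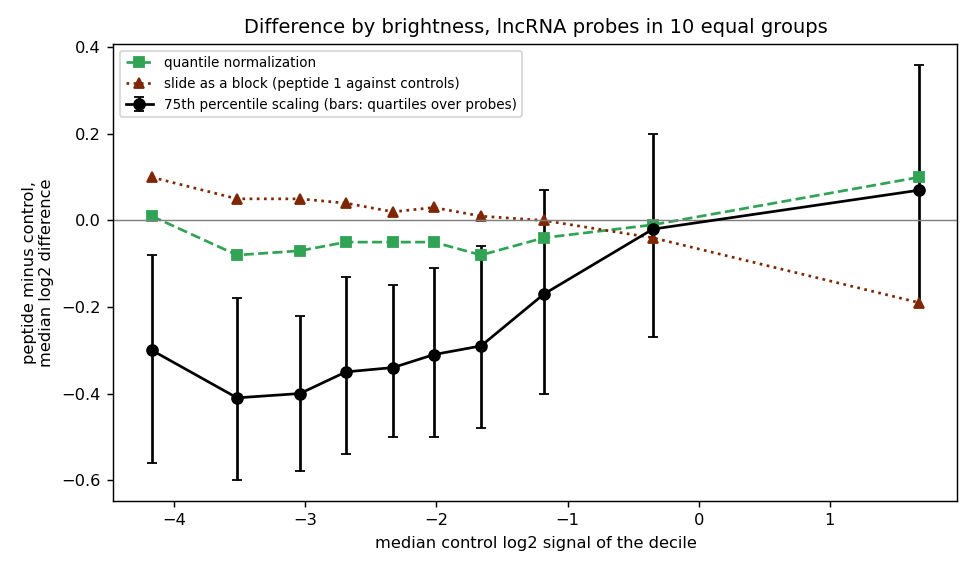
Median peptide minus control log2 difference (vertical axis) of the tested lncRNA probes in 10 equal groups, placed at the median control log2 signal of each group (horizontal axis), with quartiles over probes as bars. The brightest group is the highest, at 0.07, with the 75th percentile scaling and after quantile normalization (0.10), and the lowest with the slide as a block (-0.19).

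The members' median differed in sign between peptide 1 and the arrays of slide 2. On the slide of the controls, where only peptide 1 was treated, the median difference of the 200 was -0.247, against 0.016 for the tested lncRNA probes and 0.014 for all tested probes. For peptide 2 and 3 against the controls the median of the members was 0.124, against -0.435 and -0.335. The value of peptide 1 depended on the scaling and on control 1. It was -0.029 after quantile normalization, -0.284 after median scaling, and -0.363 without control 1. In that comparison 151 members were below 0 and 49 (24.5%) above, where 52.3% of all tested probes were above.

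With the slide as a block, 0 members passed the adjusted threshold (smallest limma adjusted p = 1), where 0.0% of all tested probes did. At an unadjusted limma p under 0.05, 11 members were lower (5.5%) and 0 higher, where 0.994% of all tested probes were lower and 0.681% higher. After quantile normalization these counts were 12 lower (6.0%) and 7 higher (3.5%), where 1.57% and 2.16% of all tested probes were. They describe 1 treated rat. The controls of this comparison also chose the members, which by itself lowers the differences, so nothing is read from the members' direction here either. Without control 1 the counts were 77 lower (38.5%), where 7.06% of all tested probes were lower, and 13 higher (6.5%), where 5.2% were higher.

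In all, 5 members lay more than 1 log2 unit lower on peptide 1 than on each of the other arrays (2.5%, where 0.281% of all tested probes did), and 0 members lay as far above, where 0.0371% of all tested probes did. ASRN6LNC1A100008052V3 was at 3.70, 3.76 and 3.12 on the controls, 1.65 on peptide 1, and 3.90 and 3.53 on peptide 2 and 3. ASRN6LNC1A100099411V3 was at 3.36, 3.05 and 2.63, then 1.08, and then 3.66 and 3.03. ASRN6LNC1A100122152V3 was at 3.26, 2.85 and 2.43, then 1.19, and then 3.26 and 2.84. In these 3 probes, which had the smallest unadjusted p with the slide as a block among the members (0.00149, 0.00209 and 0.00421 in limma, adjusted p = 1 for each), peptide 3 lay within the control range and peptide 2 at its top or above it. The other 2 were ASRN6LNC1A100003324V3 and ASRN6LNC1A100000983V3, given above. All 5 were singled out after their values were seen. Members had to be high on the controls, which by itself favours peptide 1 lying below them, so nothing is read from these shares.

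**Figure D4:**
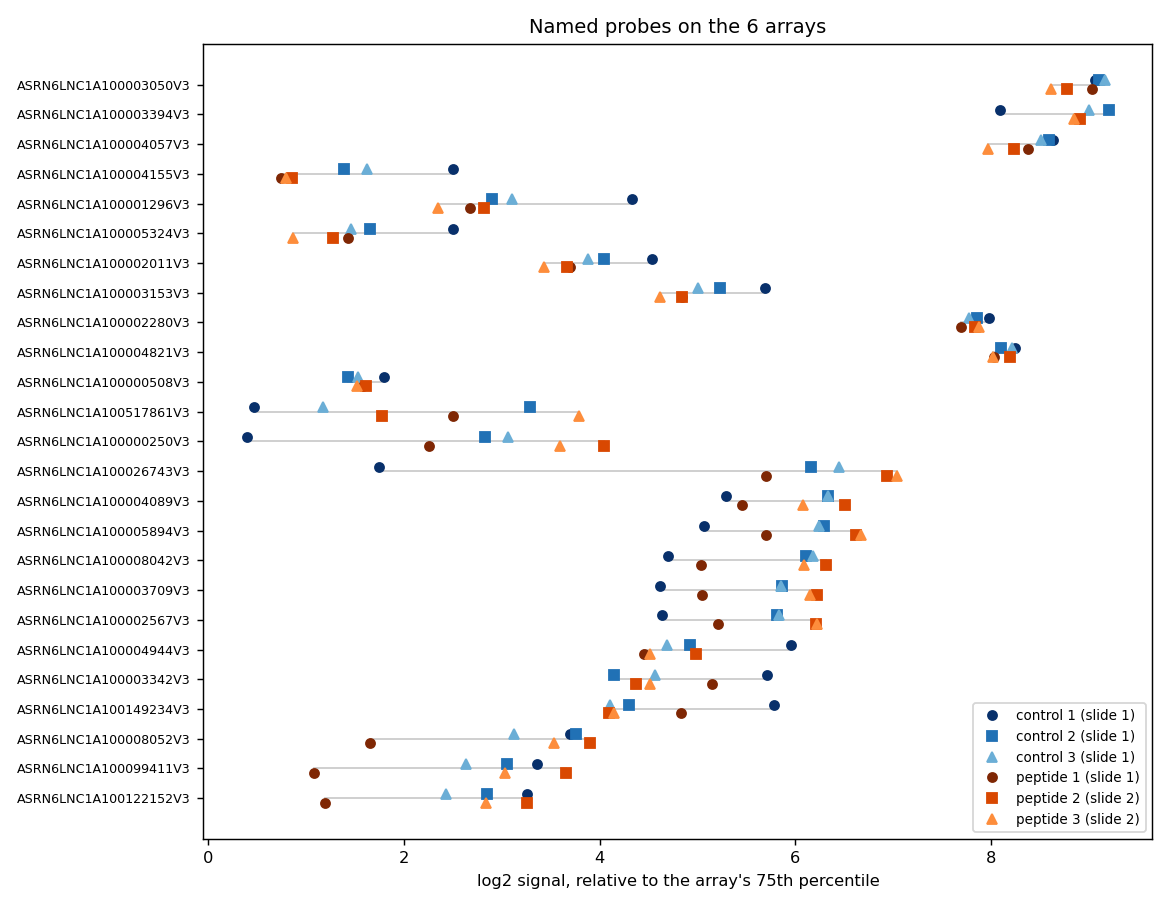
Log2 signal relative to the array's 75th percentile (horizontal axis) of 25 named probes (rows) on the 6 arrays, with controls drawn above and peptide arrays below each row's line. Control 1 is the leftmost or rightmost point in many rows, and in the 3 lowest rows peptide 1 alone lies at the left, at 1.08 to 1.65.

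The arrays of slide 2 stood outside the range of slide 1 in many members. Both lay above all 4 arrays of slide 1 in 59 members (29.5%) and below all 4 in 19 (9.5%), where 9.14% of all tested probes were above and 39.2% below. After median scaling 89 were above and 1 below, where 20.2% and 22.2% of all tested probes were. After quantile normalization 51 were above and 29 below, where 17.2% and 23.4% were. Of the 51 members with a low control 1, 27 were above and 0 below. Of the 1976 tested probes with a low control 1, 610 were above and 95 below. Slide 2 held treated rats alone, so for these 2 arrays treatment and slide cannot be told apart. Leaving out peptide 1 sets each group on its own slide, and 21 members were then higher and 3 lower at an unadjusted limma p under 0.05, where 3.72% of all tested probes were higher and 20.5% lower.

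Pairs of arrays were also compared over the 200. The closest pairs were control 2 with control 3 and peptide 2 with peptide 3, with root mean square log2 differences of 0.39 and 0.40. Control 2 was nearer to peptide 2 (0.54) and peptide 3 (0.48) on the other slide than to peptide 1 (0.74) or control 1 (1.19) on its own. Control 1 was nearest to peptide 1 (0.91) and farthest from peptide 3 (1.36). Over the tested lncRNA probes control 2 was nearer to peptide 1 (0.40) than to peptide 2 (0.77), unlike among the brightest probes. These differences include shifts of a whole class. Relative to the control mean, the median of the tested lncRNA probes was 0.02 on peptide 1 and -0.44 on peptide 2. The Pearson correlation of control 2, which ignores such a shift, was 0.979 with peptide 1 and 0.964 with peptide 2. Over the 200 it was 0.938 and 0.958, so the order of these arrays still differed. This order was not tested.

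For 2 members a control spot was marked as an outlier and left out. ASRN6LNC1A100109937V3 was measured on control 1 and 2 (4.12 and 3.34) and on the peptide arrays (3.19, 4.75 and 4.69), and ASRN6LNC1A100004778V3 on control 2 and 3 (1.72 and 1.59) and on the peptide arrays (1.39, 2.75 and 2.85). In both, peptide 2 and 3 lay above all other arrays. Their differences were 0.48 (SE 0.51) and 0.67 (SE 0.46), each from 2 controls, and that of ASRN6LNC1A100109937V3 was 0 with the outlier spot kept.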

How the data were processed

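Each RNA sample was depleted of ribosomal RNA, amplified with random primers over its full length, and read with the dye Cy3 on an Agilent one-colour array, per the labels' protocols. Per the file headers, Feature Extraction 11.0.1.1 made the deposited processed signals, which are background-corrected intensities on a linear scale, together with flags for outlier, saturated and well above background spots (the deposited flag columns). The value table holds the authors' log2 values. Each of its columns correlated best with its own array, and its columns share one median, so it was used as an alternative. Its scale is log2, and its step from spots to probes remains not given in the sources used here.

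Spots without outlier flags were averaged per probe as log2 processed signal. Each array's 75th percentile over all probes but controls was subtracted. No control spots entered. Probes that 3 or more of the 6 arrays showed well above background (37723, of which 3673 were lncRNA probes) were tested with limma 3.58.1 (lmFit and eBayes), peptide against control, with Benjamini-Hochberg adjustment at 0.05. The groups hold 3 rats each, and the number of arrays limits the precision. The labels speak of 6 rats, so each array is read as 1 rat. The fit was also run on simulated data with known changes and independent errors. Those data held no slide effect and no array that stood apart, so the run does not show how the fit handles either. Replicate numbers were not taken as pairs in the main fit. Named probes are the 10 with the highest control mean, up to 5 in each direction with groups that do not overlap, by smallest unadjusted p (none was higher), the 3 with the smallest and the 3 with the largest SD over the 6 arrays, the 3 lowest by rank in the peptide group, and the 3 on each side of the threshold. Probes picked for control 1, for the slide block, for outlier spots or for 2-fold differences were added after their values were seen. The members, the lists and the tests were chosen with earlier results of these data known. Alternatives were median scaling, quantile normalization, normexp background correction with an offset of 50, the deposited values, outlier spots kept, other filters on dim probes, the slide and the replicate number as blocks, a trended robust variance, each array left out, and other choices of members. Sequences and gene names of the probes were not used here.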

Additional observations from a re-analysis of the deposited data

How the results depend on the processing

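No member passed the limma test with Benjamini-Hochberg adjustment under any alternative run. The count with an unadjusted limma p under 0.05 and a lower peptide mean (1) was 0 with median scaling, 4 with quantile normalization, 6 with normexp and quantile normalization, 4 from the deposited values, 11 with the slide as a block, 0 with members chosen by all 6 arrays, and 1 to 8 when 1 array was left out. The higher count (0) was 1 with normexp, 3 with members chosen by all 6 arrays, and 0 to 21 when 1 array was left out. The median difference (0.022) was 0.312 with normexp, -0.247 with the slide as a block and -0.049 to 0.124 when 1 array was left out. The median SD over the controls (0.526) was 0.140 without control 1 and 0.14 to 0.67 over the single omissions. On the slide of the controls, the median difference (-0.247) was -0.029 with quantile normalization, -0.024 with normexp, -0.034 from the deposited values, and -0.363 to -0.147 when 1 control was left out.

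Members with separate groups (0 higher, 13 lower) were 2 higher with quantile normalization, 1 lower with median scaling, and 0 to 59 higher and 14 to 33 lower when 1 array was left out (59 higher and 28 lower without peptide 1). Leaving out peptide 1 sets each group on its own slide. Most counts in this section have no share over all tested probes beside them, so nothing is read from them about the members. Members with slide 2 outside slide 1 (59 above, 19 below) were 89 and 1 with median scaling, 29 below with quantile normalization, and 59 to 70 above and 21 to 33 below when 1 array was left out. Control 1 stood above both other controls in 36 members with median scaling and in 1 with quantile normalization, against 18. With the slide as a block the higher count (0) was 7 with quantile normalization and 0 to 13 when 1 control was left out, and the lower count (11) was 9 to 77. The overlap alternatives, the slide block alternatives, control 1 under other scalings and members chosen by the peptide arrays were added after seeing the data.

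With the replicate number as a block, 10 higher members and 1 lower member had an unadjusted limma p under 0.05, and 0 passed the adjusted threshold. No share over all tested probes is given for this fit, so nothing is read from these counts. Same-numbered samples deviated with correlations of -0.013, -0.19 and -0.236 over the tested probes. The deviations were from group means, with control 1 apart and the peptide arrays on different slides. These values therefore cannot show whether the numbers pair the rats.

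Of 34 named members, 12 kept their sign under the 17 alternatives. Values of the others that turned, in log2 units, were as follows. With median scaling ASRN6LNC1A100000508V3 was 0.19, ASRN6LNC1A100002280V3 0.14, ASRN6LNC1A100003342V3 0.07, ASRN6LNC1A100004221V3 0.05, ASRN6LNC1A100004821V3 0.10, ASRN6LNC1A100006765V3 0.05, ASRN6LNC1A100299494V3 0.05 and ASRN6LNC1A100608220V3 0.12. With normexp they were 0.23, 0.28, 0.31, 0.26, 0.12, 0.26, 0.18 and 0.29 in that order, with ASRN6LNC1A100004057V3 at 0.11 and ASRN6LNC1A100004904V3 at 0.15. With normexp and quantile normalization ASRN6LNC1A100000508V3 was 0.01, ASRN6LNC1A100002280V3 0.03, ASRN6LNC1A100003342V3 0.08, ASRN6LNC1A100004221V3 0, ASRN6LNC1A100006765V3 0.05 and ASRN6LNC1A100608220V3 0.10. With quantile normalization ASRN6LNC1A100000508V3, ASRN6LNC1A100002280V3, ASRN6LNC1A100004821V3 and ASRN6LNC1A100608220V3 were 0.01, 0.08, 0.06 and 0.08, and from the deposited values 0.01, 0.08, 0.06 and 0.07. With the outlier spot kept ASRN6LNC1A100109937V3 was 0. With the slide as a block ASRN6LNC1A100002567V3 was -0.22, ASRN6LNC1A100003342V3 0.34, ASRN6LNC1A100003709V3 -0.39, ASRN6LNC1A100004089V3 -0.53, ASRN6LNC1A100004778V3 -0.27, ASRN6LNC1A100005894V3 -0.17, ASRN6LNC1A100008042V3 -0.62, ASRN6LNC1A100109937V3 -0.54, ASRN6LNC1A100149234V3 0.11 and ASRN6LNC1A100299494V3 0.07. When 1 array was left out, ASRN6LNC1A100000508V3 ran from -0.09 to 0.09, ASRN6LNC1A100003342V3 from -0.46 to 0.31, ASRN6LNC1A100003394V3 from -0.23 to 0.34, ASRN6LNC1A100003709V3 from -0.04 to 0.75, ASRN6LNC1A100004089V3 from -0.32 to 0.31, ASRN6LNC1A100008042V3 from -0.33 to 0.54, ASRN6LNC1A100008052V3 from -0.94 to 0.19, ASRN6LNC1A100099411V3 from -0.96 to 0.33, ASRN6LNC1A100122152V3 from -0.83 to 0.20, ASRN6LNC1A100149234V3 from -0.67 to 0.16 and ASRN6LNC1A100608220V3 from -0.16 to 0.06. The cause was not tested. All members were well above background on every array.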

Other observations

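The members were spread evenly over the array, with 53, 51, 49 and 47 of them in 4 equal blocks of its rows. The lncRNA probes whose values over the 6 arrays ran most like those of ASRN6LNC1A100003050V3, the brightest member, were ASRN6LNC1A100007002V3 (Pearson r = 0.994), ASRN6LNC1A100005639V3 (0.992) and ASRN6LNC1A100007803V3 (0.992). None of these 3 was a member, with control ranks of 647, 2424 and 3570. The 6 points share their scaling, and no test is given.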
